A study of Homo sapiens with 4 samples.

Results

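Expression of 10 nuclear genes of mitochondrial protein quality control was examined in HCT116 cells treated with HJ-4, and none of the 10 passed the test against DMSO. They were chosen by name and role from the 20263 gene IDs of the count table, and their values were not part of the choice, although earlier results of these data were known. HSPD1, HSPE1, HSPA9 and TRAP1 encode chaperones of the mitochondrial matrix. LONP1, CLPP and CLPX encode the matrix proteases. YME1L1 and OMA1 encode inner membrane proteases, and DELE1 encodes the protein that relays mitochondrial stress to the cytosol. All 10 were found in the table by Ensembl ID, and all 10 were among the 14044 genes that passed the filter on low counts.

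HCT116 is an established human colorectal carcinoma line, labelled with the genotype WT. HJ-4 is an amide made from piperine, the alkaloid of black pepper. RNA was sequenced from cells given 32 µM HJ-4 for 24 h and from cells given 0.1% DMSO, the vehicle, for 24 h, with 2 libraries of each condition. The dose is that of the sample labels and the study's methods, whereas a figure legend of the study gives a lower one. The study's methods describe biological triplicates, whereas 2 libraries of each condition were analysed here and their labels do not name separate cultures. Each p-value rests on the spread among these 4 libraries alone, which may be technical if they do not come from separate cultures.

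Most mitochondrial proteins are made in the cytosol, imported unfolded and folded in the matrix by the Hsp60 and Hsp70 systems. Proteins that fail to fold are degraded by LONP1 and ClpXP in the matrix and by YME1L1 and OMA1 in the inner membrane. When mitochondria are stressed, OMA1 cleaves DELE1, whose fragment binds the kinase HRI, encoded by EIF2AK1. HRI then phosphorylates eIF2α and raises translation of the transcription factor ATF4, the start of the integrated stress response.

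HSPD1 and HSPE1 lie head to head on chromosome 2, and the stretch between their starts holds a match to the heat shock element, the DNA motif bound by the heat shock factor HSF1. In RefSeq (GRCh38.p14) the start of HSPD1 is at position 197499840 on the minus strand and that of HSPE1 at position 197500379 on the plus strand, with 538 bases between them. The matched stretch is shown because it lies between the 2 most abundant of the 10 genes, and because genes known as HSF1 targets are described further on. It is chr2:197500061-197500090, on the minus strand, 5′ to 3′, and the capitals, the first of which lies 245 bases before the HSPD1 start, mark 18 bases covered by 2 overlapping matches to GAANNTTCNNGAA on either strand.
HSPD1 heat shock element match: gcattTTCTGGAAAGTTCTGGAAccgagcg
The motif was found in 172 of 35116 RefSeq windows that run from 250 bases before a gene's start to 50 after it (0.49%), and in 1 of the 10 windows of the genes examined. A core of the element bound by ATF4 with C/EBP factors, TGATGNAA on either strand, was found in 1270 windows (3.62%) and in 0 of those 10. The 10 windows belong to 8 of the genes, some of which have more than 1 start, and CLPP and YME1L1 had no window in the table used.

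Library totals were 34359889 and 33762230 counts with HJ-4, and 31120459 and 29769568 counts with DMSO. The 10 genes together took 0.194% and 0.179% of the counts with HJ-4, against 0.167% and 0.189% with DMSO. Of 8 markers of colon epithelial cells, 6 averaged at least 1 CPM (counts-per-million), EPCAM, CDH1, KRT8, KRT18, KRT19 and CDX2, whereas VIL1 and CDX1 did not. Of 10 markers of other cell types, 2 averaged at least 1 CPM (VWF and COL1A1). Their summed level was 59.9 to 62.8 CPM with HJ-4 and 60.6 to 64.2 CPM with DMSO. Nearly all of that sum was COL1A1, with 58.2 and 60.8 CPM with HJ-4, against 62.6 and 59.4 CPM with DMSO. The colon epithelial markers summed to 4190 to 4390 CPM with HJ-4 and 3980 to 4470 CPM with DMSO. These are bulk libraries, in which fewer cells of a type and less RNA per cell cannot be told apart.

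Levels were compared between genes as TPM (transcripts-per-million), a unit that divides by transcript length. HSPD1 was the most abundant of the 10 at a mean of 602 TPM over the 4 libraries, which ranked 180 among 13993 genes. HSPE1 followed at 395 TPM and TRAP1 at 231 TPM, so that 3 of the 10 stood within the 1000 most abundant genes. The libraries of HSPD1, HSPE1 and TRAP1 did not overlap in TPM. HSPA9 averaged 123 TPM, LONP1 92.5 TPM and YME1L1 81.6 TPM, and the order of these neighbours was not the same in every library. In the first DMSO library, LONP1 stood at 101 TPM and HSPA9 at 88.2 TPM, and in the first HJ-4 library YME1L1 stood at 93.6 TPM and LONP1 at 88.6 TPM. CLPP averaged 34.0 TPM and CLPX 29.9 TPM. At the low end, DELE1 averaged 22.6 TPM and OMA1 19.1 TPM, with the order turned in the second DMSO library (21.0 TPM for DELE1 and 22.1 TPM for OMA1). OMA1, the least abundant, ranked 6051.

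**Figure D1:**
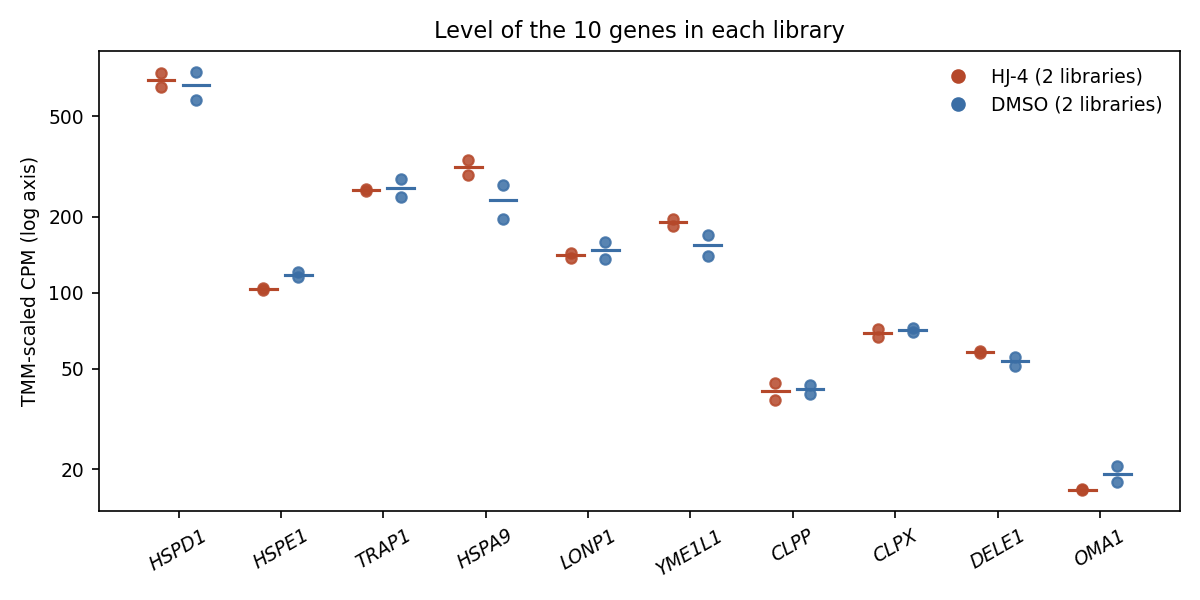
Level of each of the 10 genes in each library, as TMM-scaled CPM on a log axis, with genes ordered by mean TPM. Points are libraries (2 with HJ-4, 2 with DMSO) and lines are group means; the 2 HJ-4 points lie above both DMSO points for HSPA9, YME1L1 and DELE1 and below both for HSPE1 and OMA1.

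Against DMSO, 0 of the 10 genes passed edgeR's quasi-likelihood test at an adjusted p under 0.05, where 7 of 14044 genes passed (0.0498%). The smallest adjusted p of the 10 was 0.313. Before adjustment, a p under 0.05 was reached by 1 of the 10 in the upward direction (7.93% of all genes) and by 0 in the downward direction (7.93% of all genes). The conditions did not overlap in 5 of the 10, with HJ-4 the higher in 3 (25.2% of all genes tested) and the lower in 2 (25.6% of all genes). The median log2 fold change of the 10 was -0.03, with 4 positive and 6 negative, and the median of all genes was 0.00. A count of 3 or 2 in 10 is close to the share seen over all genes.

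The intervals set a limit on how far each gene could have moved, as far as these libraries show. In simulated counts edgeR made more false calls than its threshold sets. How often the intervals held the true value was not measured in those counts, so the intervals may or may not be too narrow. Few small changes were recovered there, so a gene that did not pass may still have changed. The 95% intervals of the log2 fold change ran no lower than -0.51 and no higher than 0.87 for any of the 10. All 10 intervals lay within 1 log2 unit of 0, and 7 lay within 0.5. Standard errors were 0.08 to 0.17, beside a median of 0.13 over all genes. For a single gene, an exact permutation test of 2 libraries against 2 cannot give a p below 0.333.

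**Figure D2:**
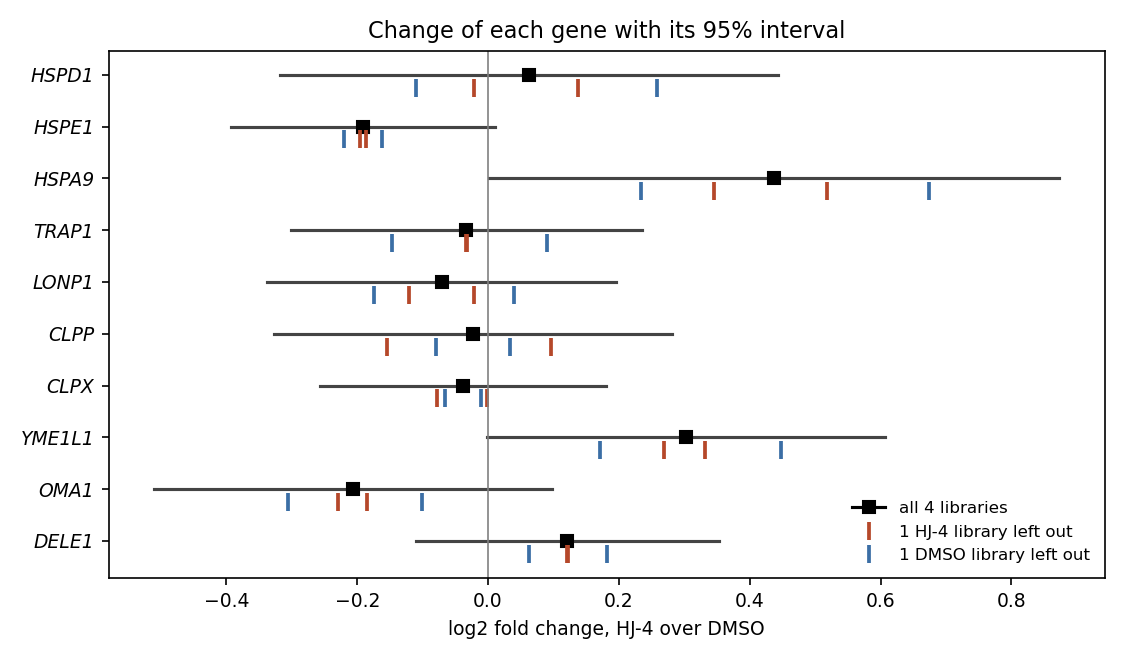
Log2 fold change of each gene, HJ-4 over DMSO, in edgeR's fit to all 4 libraries (square) with its 95% interval (line), and the value when 1 library is left out (ticks, coloured by the condition of that library). The interval of HSPA9 starts at 0.0018 and the other 9 include 0; leaving out a DMSO library moves HSPA9 to 0.23 or 0.67.

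Among the matrix chaperones, HSPA9 had the largest log2 fold change of the 10 genes. It encodes mortalin, the matrix Hsp70 that pulls proteins in through the inner membrane and folds them. HSPA9 (chromosome 5, 138553756 to 138575675, minus strand, GRCh38) had 336 and 293 CPM with HJ-4, against 197 and 268 CPM with DMSO. Both HJ-4 libraries were above both DMSO libraries, but the DMSO libraries were far apart. Means were 315 ± 30.3 CPM with HJ-4 and 232 ± 50.02 CPM with DMSO (SD, n = 2 each), a log2 fold change of 0.44 with a standard error of 0.17 and an interval of 0.0018 to 0.87 in edgeR. This is a 1.35-fold level, with an interval of 1.00 to 1.83. The unadjusted p was 0.0494 and the adjusted p 0.313, so HSPA9 did not pass. Without the first DMSO library the log2 fold change was 0.23 (adjusted p = 0.371), and without the second it was 0.67 (adjusted p = 0.0959).

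HSPD1 encodes Hsp60, which forms the folding chamber of the matrix. HSPD1 (chromosome 2, 197486584 to 197516737, minus strand) had 740 and 651 CPM with HJ-4, against 581 and 751 CPM with DMSO. The groups overlapped, with both HJ-4 libraries between the DMSO ones. The log2 fold change was 0.06 with a standard error of 0.15 and an interval of -0.32 to 0.44 (edgeR, adjusted p = 0.861). Leaving out 1 library moved it between -0.11 and 0.26.

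HSPE1 encodes Hsp10, the lid of the Hsp60 chamber. HSPE1 (chromosome 2, 197500140 to 197503449, plus strand) had 104.2 and 103 CPM with HJ-4, against 116 and 121 CPM with DMSO. Both HJ-4 libraries were lower, by an amount larger than the gap within either condition. The means were 104 ± 0.855 CPM with HJ-4 and 118 ± 3.45 CPM with DMSO (SD, n = 2 each), and the log2 fold change was -0.19 with a standard error of 0.08 and an interval of -0.39 to 0.01. The unadjusted p was 0.0596 and edgeR's adjusted p 0.329, so HSPE1 did not pass either.

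HSPD1 and HSPE1 share an upstream stretch and their products work together, and their ratio was therefore read within each library. The ratio of HSPD1 to HSPE1 in TPM was 1.76 and 1.57 with HJ-4, against 1.24 and 1.54 with DMSO. Both HJ-4 ratios were higher, although the lower of them was close to the second DMSO library. The ratio of HSPA9 to HSPD1 was 0.232 and 0.230 with HJ-4, against 0.173 and 0.182 with DMSO, and here each condition held together. Both genes differed in the same direction between libraries, which leaves their ratio close within a condition. The log2 ratio of the first library to the second was -0.443 for HSPA9 and -0.371 for HSPD1 with DMSO. With HJ-4 it was 0.197 for HSPA9 and 0.185 for HSPD1. These ratios were set beside each other as a description and were not tested.

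TRAP1 encodes the mitochondrial member of the Hsp90 family. TRAP1 (chromosome 16, 3651639 to 3717553, minus strand) had 257 and 253 CPM with HJ-4, against 283 and 240 CPM with DMSO. The HJ-4 libraries were nearly equal and lay between the DMSO libraries. The log2 fold change was -0.03 with a standard error of 0.10 and an interval of -0.30 to 0.23 (edgeR, adjusted p = 0.898).

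The 3 matrix protease genes all overlapped between conditions. LONP1, an AAA+ protease that degrades misfolded and oxidised matrix proteins, lies at chromosome 19, 5691834 to 5720572, minus strand. LONP1 had 137 and 144 CPM with HJ-4, against 159 and 137 CPM with DMSO. Its log2 fold change was -0.07 with an interval of -0.34 to 0.20 (edgeR, adjusted p = 0.764). CLPP, the peptidase of the ClpXP complex, lies at chromosome 19, 6361531 to 6370242, plus strand. CLPP had 37.8 and 44.1 CPM with HJ-4, against 40.0 and 43.3 CPM with DMSO, a log2 fold change of -0.02 with an interval of -0.33 to 0.28. CLPX, the unfoldase that feeds CLPP, lies at chromosome 15, 65148219 to 65185342, minus strand. CLPX had 72.2 and 67.2 CPM with HJ-4, against 70.2 and 72.9 CPM with DMSO, a log2 fold change of -0.04 with an interval of -0.26 to 0.18. The adjusted p in edgeR was 0.938 for CLPP and 0.852 for CLPX. The ratio of CLPP to CLPX in TPM was 1.02 and 1.28 with HJ-4, against 1.11 and 1.16 with DMSO, so that the ratios overlapped too.

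**Figure D3:**
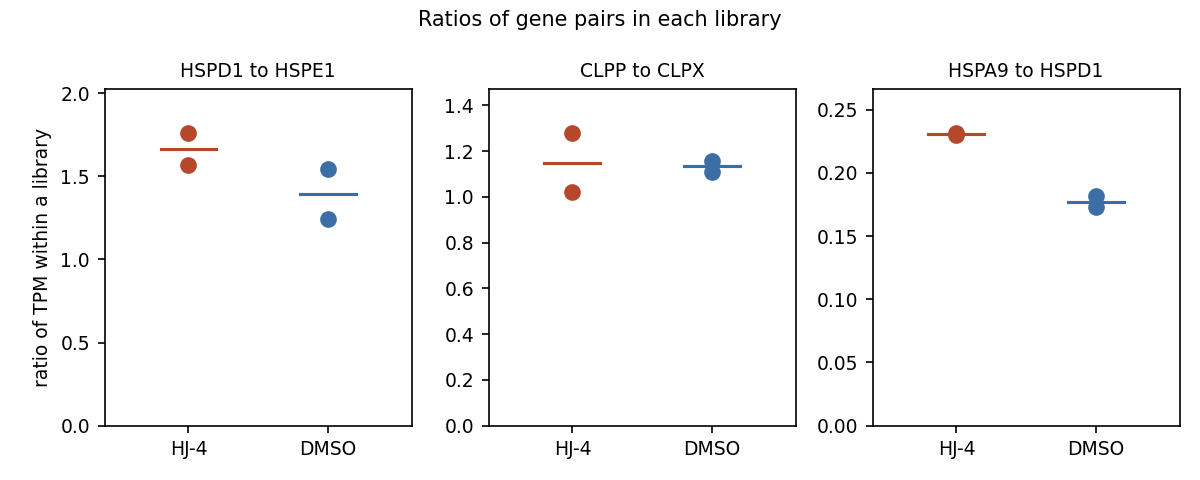
Ratio of TPM of 3 gene pairs within each library, on linear axes that start at 0. Points are libraries (2 with HJ-4 on the left of each panel, 2 with DMSO on the right) and lines are means; the HJ-4 points are above the DMSO points for HSPD1 to HSPE1 and for HSPA9 to HSPD1, and lie on either side of them for CLPP to CLPX.

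Of the inner membrane proteases, YME1L1 had the higher level in HJ-4 and OMA1 the lower, and neither passed the test. YME1L1 is the i-AAA protease, which faces the intermembrane space and cleaves OPA1. YME1L1 (chromosome 10, 27110111 to 27155266, minus strand) had 196 and 185 CPM with HJ-4, against 139 and 169 CPM with DMSO. The groups did not overlap, and the DMSO libraries again differed more from each other than the HJ-4 libraries did. Means were 190.3 ± 8.14 CPM with HJ-4 and 154 ± 21.0 CPM with DMSO (SD, n = 2 each), with a log2 fold change of 0.30, a standard error of 0.12 and an interval of -0.0017 to 0.61. The unadjusted p was 0.0509 and edgeR's adjusted p 0.316. Without the first DMSO library the value was 0.17, and without the second it was 0.45.

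OMA1 is the protease that stress activates, and it cleaves both OPA1 and DELE1. OMA1 (chromosome 1, 58415384 to 58546802, minus strand) had 16.5 and 16.8 CPM with HJ-4, against 17.8 and 20.6 CPM with DMSO. Both HJ-4 libraries were below both DMSO libraries. The log2 fold change was -0.21 with a standard error of 0.12 and an interval of -0.51 to 0.10 (edgeR, unadjusted p = 0.142, adjusted p = 0.448). Without the first DMSO library it was -0.31, and without the second it was -0.10. DELE1, the substrate that carries the signal out of the mitochondrion, lies at chromosome 5, 141923855 to 141942047, plus strand. DELE1 had 58.8 and 57.8 CPM with HJ-4, against 55.8 and 51.4 CPM with DMSO. Both HJ-4 libraries were higher by a small margin, with a log2 fold change of 0.12, a standard error of 0.09 and an interval of -0.11 to 0.35 (edgeR, adjusted p = 0.542). For DELE1 the values were 0.18 without the first DMSO library and 0.0624 without the second. OMA1 and DELE1 act through cleavage of proteins, which counts of RNA do not measure.

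The difference between the 2 DMSO libraries was larger than the difference between conditions in 6 of the 10 genes. The 2 differences were nearly equal, on the log2 scale, for HSPA9 (0.443 against 0.438), OMA1 (0.206 against 0.206) and DELE1 (0.117 against 0.121). The same count was not made over all genes. The median absolute log2 gap of the 10 was 0.08 between the HJ-4 libraries (0.11 over all genes) and 0.21 between the DMSO libraries (0.16 over all genes). The gap between libraries moved with the GC content of the transcript in both conditions. The log2 ratio of the first DMSO library to the second was -0.44 for HSPA9 at 42.1% GC, -0.37 for HSPD1 at 41.7% GC and -0.28 for YME1L1 at 40.4% GC. It was 0.24 for TRAP1 at 57.5% GC and 0.21 for LONP1 at 62.7% GC. Over all genes tested the median of the same ratio was -0.09 in the lowest of 5 equal groups by GC content and 0.12 in the highest. Between the HJ-4 libraries the median log2 ratio of the first to the second was 0.08 in the lowest group and -0.08 in the highest. The ratio was 0.20 for HSPA9 and 0.19 for HSPD1, and HSPE1, CLPX, YME1L1, LONP1 and CLPP also went with their groups. OMA1 (-0.02) and TRAP1 (0.024) went against the direction of other genes of their GC content. Between the DMSO libraries HSPA9, HSPD1 and YME1L1 differed in the direction of other genes of low GC content, and by more than their median. OMA1 did so too, at 37.7% GC and -0.21. HSPE1 (39.3% GC, -0.060) and CLPX (41.3% GC, -0.056) differed by less than the medians of their groups by GC content (-0.089 and -0.092). CLPP, at 55.7% GC and -0.11, went against the direction of other genes of its GC content. With trends in GC content and length removed, an alternative chosen after seeing the data, the log2 fold change was 0.40 for HSPA9 (edgeR, adjusted p = 0.208), 0.25 for YME1L1 (0.189) and -0.29 for HSPE1 (0.135). No gene of the 10 was called there. A p under 0.05 before adjustment was reached by 3 of the 10, where 19.7% of all genes reached it in that fit.

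**Figure D4:**
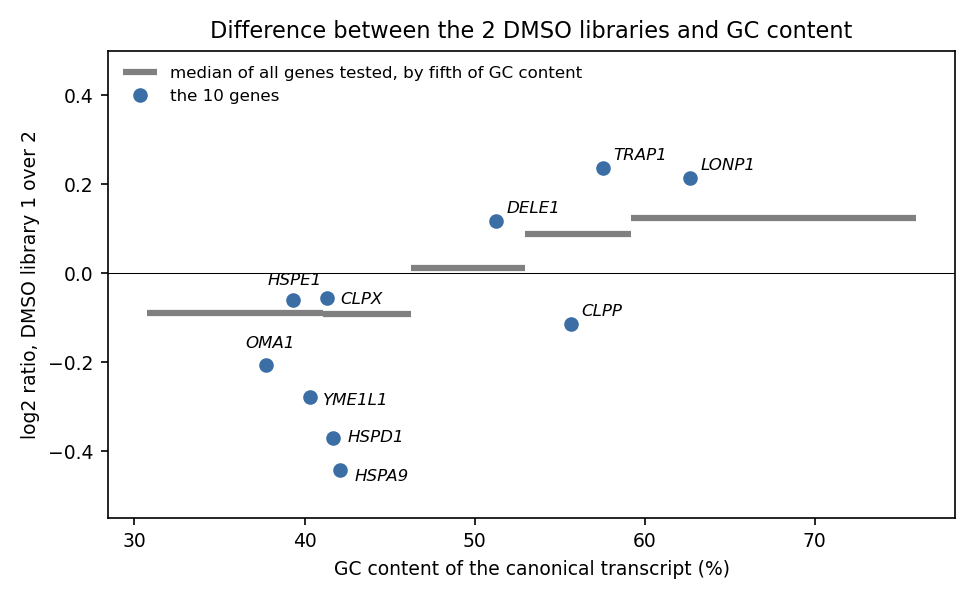
Log2 ratio of the first DMSO library to the second against the GC content of the canonical transcript, for the 10 genes (points), with the median over all genes tested in each of 5 equal groups by GC content (bars, spanning the GC range of the group). HSPA9 at -0.44 and HSPD1 at -0.37 lie lowest and TRAP1 at 0.24 highest, and the bars run upward from -0.09 to 0.12.

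Some of the loci share bases with other genes, and the sources used here do not give how the counting treated strand and shared reads. The readthrough gene HSPE1-MOB4 shares 192 bases of its canonical transcript with HSPE1 on the same strand. It had 1.32 and 1.47 CPM with HJ-4, against 1.18 and 1.495 CPM with DMSO, which is little beside HSPE1. HSPD1 and HSPE1 share 135 exon bases on opposite strands, none of them in the canonical transcripts. HSPD1 also spans the start of MOB4 on the opposite strand, where no exon bases are shared. MOB4 had 26.3 and 26.1 CPM with HJ-4, against 28.5 and 36.5 CPM with DMSO. LONP1 shares 42 bases with the opposite-strand gene RPL36, which was more abundant (723 and 755 CPM with HJ-4, against 718 and 630 CPM with DMSO). TRAP1 shares 1477 exon bases with DNASE1 on the opposite strand (20.4 and 23.6 CPM with HJ-4, against 20.4 and 23.9 CPM with DMSO), of which 59 are in the canonical transcripts. YME1L1 shares 443 exon bases with MASTL on the opposite strand (19.4 and 18.2 CPM with HJ-4, against 17.8 and 22.3 CPM with DMSO). OMA1 shares 257 exon bases with DAB1 on the same strand, and DAB1 had too few counts to be tested. GENCODE annotates 18 pseudogenes of HSPD1, 26 of HSPE1, 1 of HSPA9 and 1 of YME1L1, of which 0 are in the table, so reads that match a copy equally well make the levels of HSPD1 and HSPE1 less certain.

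Of 8 co-chaperone genes tested, 4 had a positive and 4 a negative log2 fold change, the median was -0.02, and 0 passed the test in either direction. HSCB, which hands iron-sulphur clusters on with HSPA9, had 8.07 and 7.67 CPM with HJ-4, against 6.18 and 7.08 CPM with DMSO. This is a log2 fold change of 0.25 (edgeR, adjusted p = 0.450). DNLZ, which keeps HSPA9 soluble, was at 0.23 and CLPB, a disaggregase of the intermembrane space, at -0.21 on the same scale.

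Among 16 other mitochondrial proteases and peptidases, 7 log2 fold changes were positive and 9 negative, with a median of -0.05. The list includes CLPB, the disaggregase counted above, and without it 7 of 15 were positive and 8 negative, with a median of -0.04. Before adjustment, 2 of the positive and 1 of the negative genes had a p under 0.05 (7.93% of all genes in each direction), and 0 passed after it. XPNPEP3, an aminopeptidase, had 49.7 and 47.9 CPM with HJ-4, against 59.2 and 57.9 CPM with DMSO. Its log2 fold change was -0.26 (edgeR, adjusted p = 0.264). IMMP2L, a subunit of the inner membrane peptidase, was at 0.44 (adjusted p = 0.306) and METAP1D, which removes the first methionine, at 0.37 (adjusted p = 0.310).

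No scaffold or substrate of the inner membrane proteases passed the test. Of 8 such genes tested, 7 were positive and 1 negative, with a median of 0.12. Before adjustment 1 had a p under 0.05, in the upward direction (7.93% of all genes). PGAM5, a phosphatase cleaved in the inner membrane, had 70.1 and 62.7 CPM with HJ-4, against 37.5 and 54.8 CPM with DMSO. OPA1, the fusion GTPase that OMA1 and YME1L1 cleave, had 96.8 and 88.2 CPM with HJ-4, against 53.9 and 82.1 CPM with DMSO. Both had their lowest level in the first DMSO library, as HSPA9 and YME1L1 did. The log2 fold changes were 0.53 for PGAM5 (edgeR, adjusted p = 0.306) and 0.44 for OPA1 (adjusted p = 0.376), and that of AFG1L, an ATPase of the inner membrane, was 0.38 (adjusted p = 0.477). Without the first DMSO library PGAM5 was at 0.28 and OPA1 at 0.17, and without the second PGAM5 was at 0.82 and OPA1 at 0.78.

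The list of the integrated stress response held the 2 genes of these lists that passed the test. It also holds the kinases EIF2AK2, EIF2AK3 and EIF2AK4, and activity of the relay was not measured. ATF5, a transcription factor tied to the mitochondrial unfolded protein response, had 15.1 and 14.1 CPM with HJ-4, against 3.22 and 2.96 CPM with DMSO. The conditions were far apart and the libraries of each close together. ATF5 rose by a log2 fold change of 2.24 with a standard error of 0.14 (edgeR, adjusted p = 0.0375). GDF15, a hormone secreted under cellular stress, rose too, with 374 and 385 CPM with HJ-4, against 160 and 145 CPM with DMSO. Its log2 fold change was 1.32 with a standard error of 0.09 (edgeR, adjusted p = 0.0462). Neither call held in edgeR without 1 HJ-4 library, where 0 genes were called in the whole table. The log2 fold changes stayed near the values above, at 2.20 and 2.28 for ATF5 and at 1.35 and 1.29 for GDF15. Without the first or the second HJ-4 library the adjusted p was 0.215 or 0.158 for ATF5 and 0.215 or 0.204 for GDF15, and total-count scaling gave 0.0505 for GDF15. In simulated counts edgeR made more false calls than its threshold sets, so adjusted p-values this close to 0.05 may be too small. ATF5 shares 565 exon bases with NUP62 and 75 with IL4I1 on the opposite strand. The levels of NUP62 and IL4I1 were not examined, so how far their reads enter the counts of ATF5 is not known. The study lists GDF15 among raised genes for which it proposes a p53-mediated response to DNA damage. Which signal raised ATF5 and GDF15 was not tested here.

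Of the 22 tested genes of that list, 20 had a positive log2 fold change and 2 a negative one, and the median was 0.52. Before adjustment, 15 of the positive and 0 of the negative genes had a p under 0.05 (7.93% of all genes in each direction). After adjustment 2 passed (0.0498% of all genes). The list holds kinases, factors and targets, and was chosen with earlier results of these data known. EIF2AK1, the kinase that DELE1 binds, had 175 and 176 CPM with HJ-4, against 154 and 189 CPM with DMSO, and the groups overlapped (log2 fold change 0.04, edgeR adjusted p = 0.903). ATF4 had 827 and 821 CPM with HJ-4, against 637 and 591 CPM with DMSO. ATF4 was at 0.42 with an interval of 0.22 to 0.62 (adjusted p = 0.155). DDIT3, which encodes the factor CHOP, had 136 and 131 CPM with HJ-4, against 85.4 and 61.4 CPM with DMSO, and ASNS, asparagine synthetase, had 333 and 313 CPM with HJ-4, against 188 and 181 CPM with DMSO. Their log2 fold changes were 0.87 (edgeR, adjusted p = 0.165) and 0.81 (adjusted p = 0.0794). The difference between this list and the 10 genes was not tested, and the medians of 0.52 and -0.03 stand side by side as a description.

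**Figure D5:**
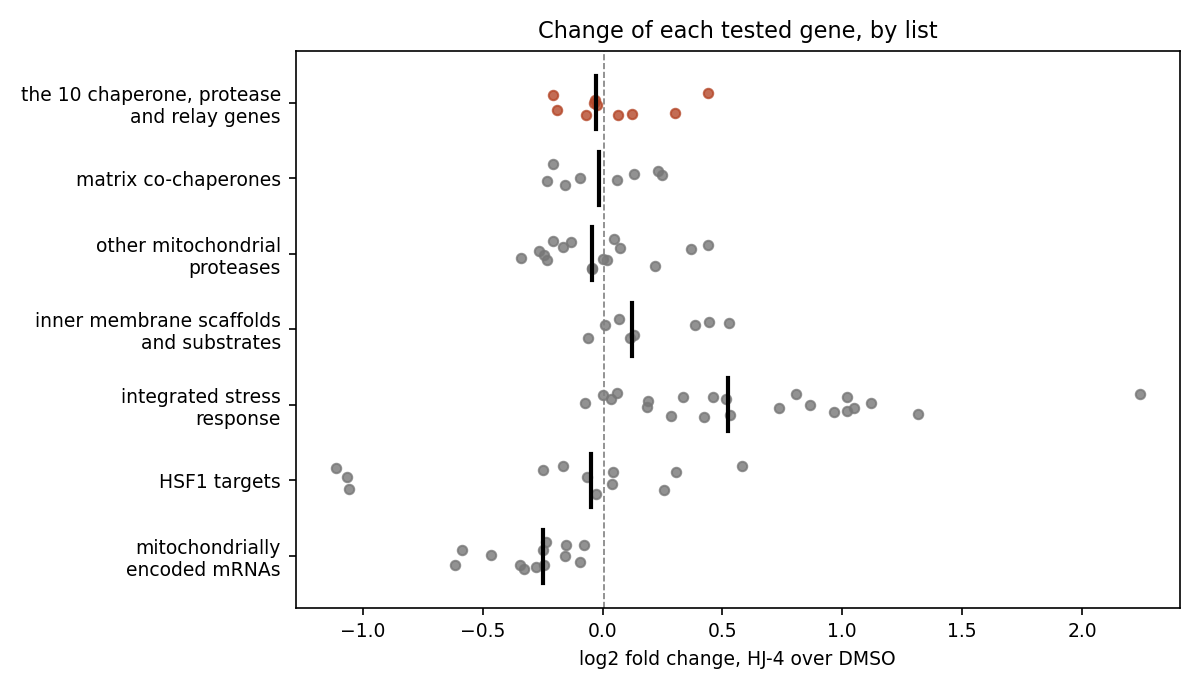
Log2 fold change, HJ-4 over DMSO, of each tested gene in 7 lists (points, moved apart vertically at random), with the median of each list (black bar) and of all genes tested (dashed line). The 10 genes lie between -0.21 and 0.44 around a median of -0.03, and the integrated stress response list has a median of 0.52; the import and the mass and biogenesis lists are not drawn.

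HSF1 acts through heat shock elements of the kind matched between HSPD1 and HSPE1. Of its known targets 12 were tested, 5 of them positive and 7 negative, with a median of -0.05, and 0 were called. Before adjustment 3 had a p under 0.05, all 3 lower (7.93% of all genes), and these were chaperones of the cytosol. HSPA1B had 156 and 156 CPM with HJ-4, against 343 and 307 CPM with DMSO. HSPA1A had 76.3 and 78.9 CPM with HJ-4, against 178 and 158 CPM with DMSO. DNAJB1, their co-chaperone, had 218 and 242 CPM with HJ-4, against 508 and 454 CPM with DMSO. The groups did not overlap for any of the 3. Of the 12 targets, 5 were lower without overlap (25.6% of all genes) and 2 were higher without overlap (25.2% of all genes). Log2 fold changes were -1.06 for HSPA1B (edgeR, adjusted p = 0.0633), -1.11 for HSPA1A (adjusted p = 0.0664) and -1.07 for DNAJB1 (adjusted p = 0.0794). With the replicate block HSPA1B (adjusted p = 0.0453) and HSPA1A (0.0479) were called and DNAJB1 was not (0.0526). All 3 were called by DESeq2, with GC content and length trends removed (adjusted p = 0.0429 for HSPA1B, 0.0429 for HSPA1A and 0.0450 for DNAJB1) and without the first DMSO library (adjusted p = 0.0329 for HSPA1B, 0.0339 for HSPA1A and 0.0466 for DNAJB1). Without the second DMSO library HSPA1B (0.0330) and HSPA1A (0.0332) were called and DNAJB1 was not (0.0515). Without either HJ-4 library, where 0 genes were called in the whole table, their adjusted p was 0.295 to 0.324. HSPA1A and HSPA1B are near-identical copies, so that the split of reads between them is uncertain. The intervals of HSPD1 (-0.32 to 0.44) and HSPE1 (-0.39 to 0.01) lay above these 3 values. Those 3 genes were named for the smallest p and were the lowest of the 12 targets. The other targets ran from -0.25 for HSPA8 to 0.58 for HSP90AA1, a range that HSPD1 (0.06) and HSPE1 (-0.19) fall within.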

How the data were processed

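RNA sequencing of HCT116 cells gave 4 libraries, 2 with HJ-4 and 2 with DMSO. Raw, unnormalized counts (whole reads for each Ensembl gene ID) were deposited by the authors. The study's methods name FastQC, Trimmomatic, STAR, GRCh38, featureCounts, TPM and limma, whereas the submitters' notes list HISAT2, RSEM and bedtools beside FastQC and Trimmomatic. These sources conflict on the aligner and the counter, and the annotation and strand setting are not given in the sources used here. A counter that drops or shares reads of overlapping genes would move the counts of those genes.

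Symbols, loci, transcript lengths and GC content were taken from GENCODE version 44 (20148 of 20263 IDs matched, and the rest held up to 0.0533% of a library's counts). In edgeR 4.0.16 under R 4.3.3, filterByExpr kept 14044 genes, TMM set the scaling, and glmQLFit with glmQLFTest compared the conditions with no other term. P-values were adjusted over these genes by Benjamini-Hochberg. edgeR was used in place of limma because the values are counts. Intervals (95%) came from the same fit. TPM was computed from canonical transcript lengths. The common biological coefficient of variation was 0.157. Motifs were searched on both strands of RefSeq windows. The tests were first run on simulated counts, in which edgeR's share of false calls was above its nominal rate and few small changes were recovered.

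The alternatives were scaling by size factors or by total counts, no filter or a minimum mean of 5 CPM, the Wald test of DESeq2 1.42.0, voom and log2(TPM + 1) in limma 3.58.1, a replicate block, leaving out each library, and removal of GC content and length trends, which was chosen after seeing the data. The members, the lists and these tests were chosen with earlier results of these data known. Named genes are all 10 members, up to 3 tested genes with the smallest p in each list, ATF4, ATF5, DDIT3 and EIF2AK1, and genes that overlap a member. The lists were co-chaperones, other proteases, scaffolds and substrates, import machinery, integrated stress response, HSF1 targets, mass and biogenesis, and mitochondrially encoded mRNAs. The co-chaperones are drawn as matrix co-chaperones, although CLPB, a disaggregase of the intermembrane space, is among them. The genes that overlap ATF5 are named in addition, after its values were seen. Protein and phenotype experiments of the study were not analysed here.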

Additional observations from a re-analysis of the deposited data

How the results depend on the processing

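None of the 10 genes was called by edgeR, DESeq2 or limma in any of the 13 alternatives, in which 0 to 3 of the 10 had an unadjusted p under 0.05, beside 7.20% to 20.8% of all genes. In the 9 alternatives that used every library, all 90 refits of the 10 genes kept their sign. The number of genes called over the whole table was 7 in the fit reported and moved to 12 without a filter, 570 with DESeq2's Wald test and 28 with GC content and length trends removed, and the cause was not tested. With the replicate block 31 genes and 0 of the 10 were called. The labels do not say that a number marks a shared culture or day, and same-numbered libraries deviated with a correlation of -0.0713, which is 1 value because 2 libraries of a condition deviate as mirror images. The block changed no call of the 10 and added calls of HSPA1A and HSPA1B. Leaving out 1 library gave 0 to 88 genes called, with 88 without the first DMSO library, 34 without the second, and 0 without either HJ-4 library (1030 and 1184 genes at an unadjusted p under 0.05). The lone library of a condition was assumed to vary like those of the other condition. Leaving out 1 library turned the sign of 4 of the 10 genes, none of them called, with ranges of -0.11 to 0.26 for HSPD1, -0.15 to 0.0899 for TRAP1, -0.17 to 0.0402 for LONP1 and -0.15 to 0.10 for CLPP. HSPA9 ranged from 0.23 to 0.67 and YME1L1 from 0.17 to 0.45, in both cases lowest without the first DMSO library and highest without the second. Across all alternatives the adjusted p was 0.0959 to 0.748 for HSPA9 and 0.108 to 0.741 for YME1L1. Among the other named genes the ranges were -0.10 to 0.19 for EIF2AK1, -0.13 to 0.10 for DNASE1, -0.10 to 0.24 for HSPE1-MOB4 and -0.24 to 0.076 for MASTL. With GC content and length trends removed, DNASE1 was at 0.0046 and HSPE1-MOB4 at -0.0028. Of 414 refits of those genes, 22 were newly called and 5 lost the call, all 5 of them ATF5 or GDF15. The new calls were 5 each for HSPA1A and HSPA1B, 3 for DNAJB1, 2 each for DDIT3 and MT-CYB, and 1 each for ATF4, ASNS, MT-ND2 and MT-ATP8 (all 4 with DESeq2) and for TOMM6 (without the second DMSO library).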

Other observations

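Of the 13 mitochondrially encoded messenger RNAs, 0 passed edgeR's test after adjustment (0.0498% of all genes passed). Before adjustment 5 had a p under 0.05, all lower (7.93% of all genes). All 13 log2 fold changes were negative (6922 of 14044 over all genes), with -0.25 as their median. The 13 were read in the same 4 libraries and are not independent results. HJ-4 was lower without overlap in 8 of them (25.6% of all genes). MT-ND2, a subunit of complex I, had 1118 and 1206 CPM with HJ-4, against 1585 and 1978 CPM with DMSO. Its log2 fold change was -0.62 (edgeR, adjusted p = 0.173). MT-ATP8, a subunit of the ATP synthase, was at -0.46 (adjusted p = 0.173), and MT-CYB, cytochrome b, at -0.59 (adjusted p = 0.208). The second DMSO library was the highest of the 4 for MT-ND2 and for all others of the 13 except MT-ND6 and MT-ATP8. The share of counts from mitochondrially encoded genes was 6.01% and 6.41% with HJ-4, against 6.59% and 7.73% with DMSO.

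Of 26 import genes tested, 17 were positive and 9 negative, with a median of 0.06. Before adjustment 2 of the positive and 1 of the negative genes had a p under 0.05 (7.93% of all genes in each direction). After adjustment 0 passed edgeR's test. TOMM34, a cytosolic cofactor of import, had 86.0 and 77.2 CPM with HJ-4, against 63.2 and 67.6 CPM with DMSO, and TIMM13, a small chaperone of the intermembrane space, had 26.3 and 27.1 CPM with HJ-4, against 22.2 and 22.5 CPM with DMSO. TOMM6, a subunit of the outer membrane channel, had 1.03 and 1.05 CPM with HJ-4, against 46.8 and 1.26 CPM with DMSO. Its log2 fold change of -4.53 (edgeR, adjusted p = 0.297) rests on the first DMSO library.

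Genes of mitochondrial mass and biogenesis were split evenly, with 7 positive and 7 negative of 14 tested. Of these, 2 were lower at an unadjusted p under 0.05 (7.93% of all genes), and 0 were called by edgeR. TFAM, which packs and transcribes mitochondrial DNA, had 42.7 and 39.3 CPM with HJ-4, against 50.5 and 49.3 CPM with DMSO, a log2 fold change of -0.29 (adjusted p = 0.270). VDAC3, a pore of the outer membrane, was at -0.24 (adjusted p = 0.285), and PPRC1, a coactivator of mitochondrial biogenesis, at 0.22 (adjusted p = 0.321).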
